A study of Caenorhabditis elegans with 12 samples.

Results

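Broad domains of histone H4 lysine 5 acetylation (H4K5ac) are the regions that the authors' H4K5ac list gives as at least 15 kb wide, measured from first to last base. The members were chosen by a measured value, the listed width, and the rule picked 392 of the 6432 listed H4K5ac regions, or 6.09%, and together these 392 domains spanned 8.32 Mb, which is 23.1% of all listed H4K5ac bases. The study measured H4K5ac and H4K8ac, acetylation of the neighbouring lysine 8, by chromatin immunoprecipitation and sequencing (ChIP-seq) in whole adult Caenorhabditis elegans of the wild-type strain Bristol N2. Worms had been fed Escherichia coli OP50 at 20 °C, and no mutant or treatment is part of these samples. The 12 libraries form 4 groups of 3 replicates: H4K5ac IP (immunoprecipitated chromatin), H4K8ac IP, H4K5ac input (unprecipitated chromatin) and H4K8ac input. Whole worms mix germline, intestine, muscle, neurons and hypodermis, so acetylation in fewer cells and weaker acetylation in each cell cannot be told apart. The labels do not say whether the replicates came from separate cultures, so a p-value reflects library-to-library spread alone, and that spread may be technical.

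Acetyl groups on the H4 tail are added by histone acetyltransferases and removed by histone deacetylases. They neutralise the charge of the lysines, are read by bromodomain proteins and are known mainly from the promoters and bodies of transcribed genes. The worm genome is compact: genes lie close together, some in operons, broadly expressed genes are common in the central parts of autosomes, and the X chromosome is largely silent in the germline.

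The domains were 15199 to 65599 bp wide, with a median of 19399 bp and quartiles of 16599 and 23049 bp. Of the 392, 173 reached 20 kb, 36 reached 30 kb and 7 reached 40 kb. Widths come in steps of 200 bp, so the limit of 15 kb cut through a continuous distribution. 13 domains had the lowest width of 15199 bp, among them those named for morc-1, C06E8.7 and acs-4, while 10 regions lay just outside at 14999 bp, among them those named for linc-90, rad-26 and T14G10.10. The morc-1 and acs-4 domains were fully covered by H4K8ac regions and the C06E8.7 domain not at all; just outside, the rad-26 and T14G10.10 regions were fully covered and the linc-90 region to 96.0%.

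The domains crowded onto chromosomes III and I and were few on V and X. Chromosome III held 105 domains (26.8% of all), chromosome I 26.5% of all, II 74 domains, IV 57, V 39 and X 13. They made up 9.12% of the H4K5ac regions of chromosome III and 8.36% of those of chromosome I, against 1.27% of the regions of X, although X had 1021 listed H4K5ac regions and chromosome III 1151. Broad domains covered 17.2% of the length of chromosome III, 15.1% of I, 9.84% of II, 6.75% of IV, 3.61% of V and 1.34% of X, counting each chromosome up to its last annotated gene. With each chromosome cut into 3 equal parts, 165 of the 392 domains had their centre in the middle part (42.1%), against 1872 of 6040 narrower H4K5ac regions. The domains' middle-part shares ran from 36.8% on IV to 48.7% on V and exceeded those of narrower regions on all 6 chromosomes. These are counts from a single list, so they have no replicate error and were not tested.

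**Figure D1:**
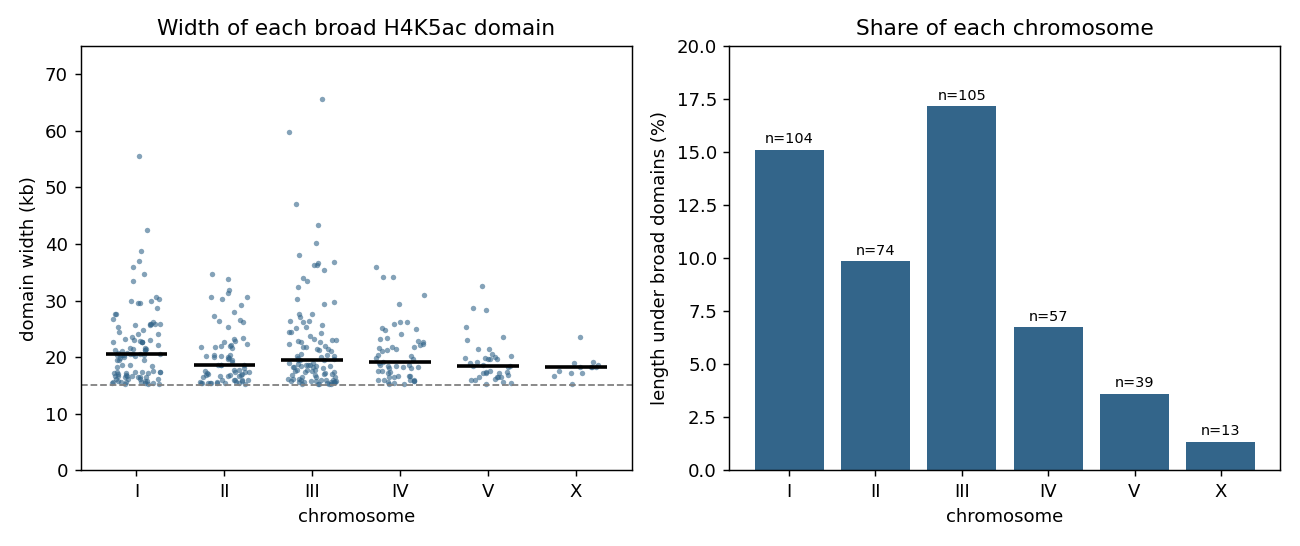
Left, the width in kb of each of the 392 domains (points) by chromosome, with the median as a black bar and the 15 kb limit dashed; right, the share in % of each chromosome's length under domains, with the number of domains. Chromosomes III and I have most domains and the 3 widest, and X has 13 domains, none wider than 23599 bp.

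The widest domain lay on chromosome III at 4889401 to 4954999 (WBcel235) and is named for mmab-1, an enzyme of vitamin B12 metabolism. It held 21 whole protein-coding genes, including rars-1 (an arginyl-tRNA synthetase), rpb-2 and rpb-8 (RNA polymerase II subunits) and set-2 (a histone H3 lysine 4 methyltransferase). The next was the 59799 bp domain of thoc-2, a subunit of the THO complex in mRNA export, at III 6338601 to 6398399, with 16 whole genes including rps-13 and the proteasome gene rpn-13. Next came the 55599 bp domain of unc-101, a clathrin adaptor subunit, at I 12482801 to 12538399, with 13 whole genes. The domains of rbm-26 (46999 bp) and let-721 (43399 bp, an electron transfer enzyme of mitochondria) followed on chromosome III, and those of nduf-7 (42399 bp, respiratory complex I) on I and ztf-18 (40199 bp) on III. Places 8 to 12 went to unc-108 (38799 bp, a Rab2 GTPase), R05D3.6 (37999 bp), nsun-4 (36999 bp), nrde-1 (36799 bp, nuclear RNA interference) and spe-41 (36599 bp, a sperm cation channel). All 12 widest domains lay on chromosomes I and III. The widest domains elsewhere were Y54G2A.36 on IV (35999 bp), tag-151 on II (34599 bp), K06C4.1 on V (32599 bp) and the non-coding T25C12.6 on X (23599 bp).

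Most broad domains held several whole protein-coding genes. They held 1797 whole protein-coding genes, 9.00% of the 19971 annotated, with a median of 4 per domain and a range of 0 to 21. 183 domains held 5 or more, while 37 held none whole; these 37 include parts of long genes such as let-805, which encodes the muscle-attachment protein myotactin. Neighbouring genes inside a domain lay a median of 238 bp apart (1429 pairs), against 756 bp for other neighbours (18536 pairs). Only pairs lying whole in the same domain count as inside, and this by itself favours short gaps. Gaps of 1000 bp or less made up 84.6% of the pairs inside and 57.3% of the others. Gene midpoints numbered 2.46 per 10 kb in the domains, 2.30 in narrower H4K5ac regions and 1.99 over the chromosomes, so the excess over narrower regions was small. Wider domains held more whole genes (Spearman correlation 0.470 across the 392 domains), which a longer window gives by itself.

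The gene named for a domain is the one the authors assigned to its centre. It was protein-coding for 326 domains (83.2%, against 75.5% of the genes named for narrower regions), a non-coding RNA of unclassified type for 51, a piRNA for 5, a snoRNA for 4 and a miRNA for 3. The centre was annotated as promoter for 161 domains (41.1%, against 36.3% of narrower regions), exon for 78, intron for 68, transcription termination site for 55 and intergenic for 30. In a region this wide the centre says little about the rest: the 161 promoter-centred domains span gene bodies too, and 75.1% of all domain bases fell within protein-coding gene spans, against 71.3% in narrower regions. Among small RNA genes, 86 of 346 snoRNA genes (24.9%) lay wholly inside a domain, as did 33 of 260 miRNA genes (12.7%), 18 of 612 tRNA genes (2.94%) and 76 of 15363 piRNA genes (0.495%).

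Genes of protein synthesis and turnover were common inside domains, and large sensory and nuclear receptor families were almost absent from them. Of 78 cytosolic ribosomal protein genes picked by name pattern, 37 (47.4%) lay wholly inside a domain, beside 9.00% of all protein-coding genes. The ribosomal protein gene rla-0, which names a domain, is not among the 37. They were spread over 36 domains, with rps-13, rpl-23, rpl-10L and rpl-32 in the widest. Aminoacyl-tRNA synthetases, which load tRNAs, had 15 of 33 inside (rars-1, pars-2, nars-1, iars-2). Translation factors had 11 of 31 inside (eif-2gamma, eef-1A.1, eef-2, eif-2Bbeta). In all, 59 domains held a gene of these 3 lists.

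Proteasome genes had 15 of 33 inside a domain (45.5%), among them rpn-13, rpn-5 and pbs-3. Genes of the vacuolar ATPase and respiratory chain had 14 of 34 inside (nuo-6, vha-4, cyc-2.1, cyc-1), and RNA polymerase II and Mediator genes 12 of 32 (rpb-2, rpb-8, mdt-29, mdt-8). Splicing genes had 10 of 34 inside (sftb-1, sut-6, rsp-8, snr-7), chaperones 15 of 61 (cct-6, dnj-2, dnj-13, dnj-16) and chromatin regulators 13 of 57 (set-2, set-1, set-10, set-32). Every one of these lists thus stood above the 9.00% of all protein-coding genes, with chromatin lowest at 22.8%.

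Core histone genes had the highest share, 38 of 72 (52.8%), but they are tandem clusters and sat in only 7 domains. The his-11 domain on II held 13 of them, and the domains of B0035.21 on IV and K06C4.1 on V held 8 each. Histone genes are near-identical copies, so reads counted there may be split between copies, and a cluster counts as 1 place rather than as many genes.

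Other large gene families had few members inside. Of 1370 chemoreceptor genes, 2 (0.146%) lay inside a domain, sri-5 and srxa-10. Nuclear hormone receptors had 2 of 269 inside (nhr-19, nhr-61), F-box, MATH and BATH genes 9 of 394, C-type lectins 7 of 239 and the collagen group 9 of 188. The collagen group takes every gene named col-, dpy-, rol- or sqt-, dpy-18 among them, so it is not collagens alone. Low shares also held for H4K5ac regions of any width, which touched 7.81% of chemoreceptor genes, 38.3% of nuclear hormone receptor genes, 32.2% of C-type lectins and 26.1% of the F-box, MATH and BATH group, against 53.3% of all protein-coding genes and 98.7% of ribosomal protein genes. The collagen group was touched in 70.7% of cases. Chromosome make-up differed between the groups, and its part was not tested. On I or III lie 52.6% of ribosomal protein genes, against 27.6% of all, and on V or X lie 68.8% of chemoreceptor and 70.6% of nuclear hormone receptor genes, against 38.7% of all. Proteasome and aminoacyl-tRNA synthetase genes resembled the ribosomal ones, with 54.5% and 48.5% on I or III. On V or X lie 15.2% and 12.1% of them. F-box, MATH and BATH genes (27.2% on V or X), C-type lectins (36.8%), the collagen group (36.7%) and histone genes (43.1%) did not line up in this way. Shares by chromosome were not computed for the other lists.

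**Figure D2:**
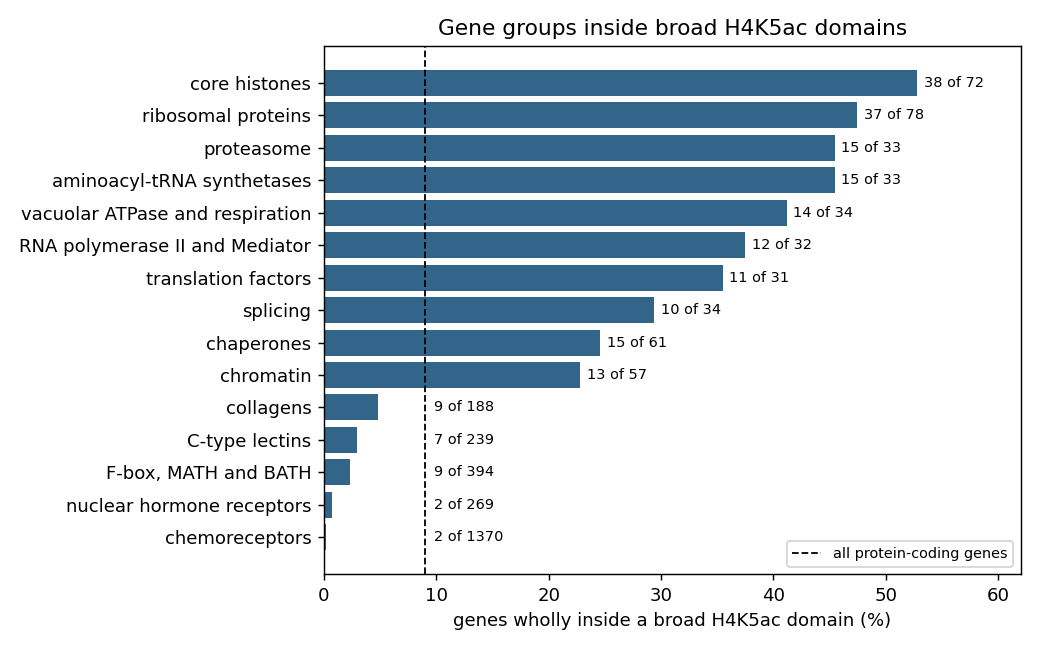
Share in % of the genes of each group that lie wholly inside a domain, with counts beside the bars; the dashed line marks the 9.00% of all protein-coding genes. Histone, ribosomal protein, proteasome and synthetase genes stand between 45.5% and 52.8%, and chemoreceptors at 0.146%.

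Tissue markers gave small numbers. Of 12 germline and oocyte markers, 4 lay inside a domain (glh-1, puf-5, gld-1, pos-1), and of 7 sperm markers 2 did (fer-1, msp-31). The share over all protein-coding genes was 9.00%. None of 8 intestinal, 10 muscle, 9 neuronal or 7 hypodermal markers lay inside one. With an all-gene share of 9.00% and sets this small, that cannot be read as a difference between tissues. These genes were not outside H4K5ac altogether: 12 of 12 germline, 4 of 7 sperm, 5 of 8 intestinal, 9 of 10 muscle, 5 of 9 neuronal and 6 of 7 hypodermal markers touched an H4K5ac region of some width. Over all protein-coding genes, 53.3% did.

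H4K8ac regions, listed from another antibody and other libraries, lay under almost all of the domains. The median cover was 100% of a domain's bases, and 97.0% of all domain bases were covered, against 87.6% of the bases of narrower H4K5ac regions. A single H4K8ac region covered the whole domain in 265 cases (67.6%). At least 90% of the bases were covered in 367 domains (93.6%), against 70.1% of narrower regions. With width class the share covered to 90% or more increased, being 60.1% under 2 kb, 70.7% from 2 to 5 kb, 75.1% from 5 to 10 kb, 84.2% from 10 to 15 kb and 93.6% in the domains. The share with no H4K8ac region ran from 28.7% under 2 kb to 1.28% in the domains. Full cover changed little with width, being 60.1% in the narrowest class and 67.6% in the domains. Under 2 kb the 991 regions covered to 90% or more were also the 991 fully covered. There a miss of 1 step of 200 bp already falls below 90%, while a domain can miss several steps. The rise by width is thus partly set by the 90% limit. A longer region can be touched by more H4K8ac regions, and each list is a single call set, so no error can be given.

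**Figure D3:**
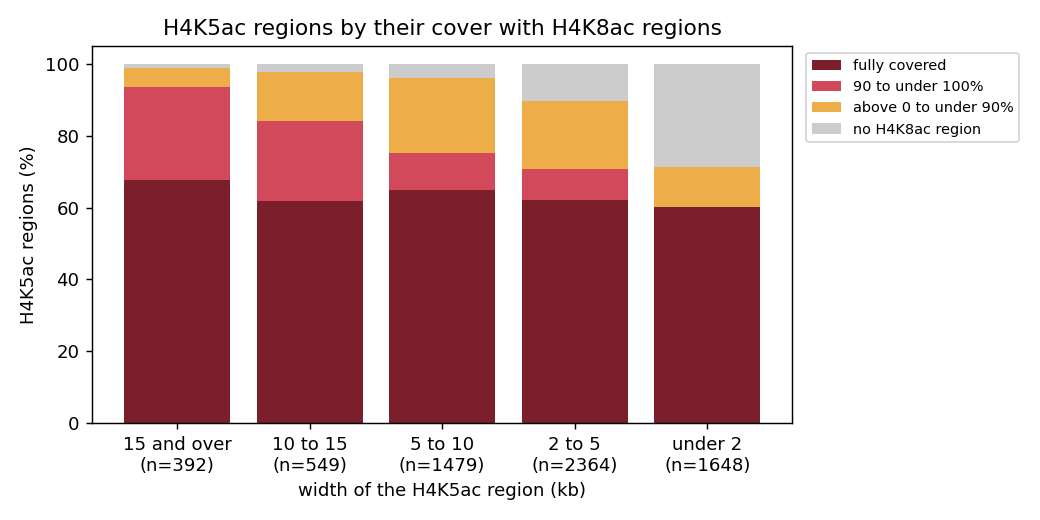
H4K5ac regions in % by how much of each is covered by H4K8ac regions, for 5 width classes, with the number of regions under each bar. The domains (left) have the largest share covered to 90% or more, 93.6%, and the smallest share with none, 1.28%.

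The edges of the 2 marks often differed although their bodies coincided. Both edges were at the same base in 87 domains, 1 edge in 194 and neither in 111. 323 domains met 1 H4K8ac region, 54 met 2, 8 met 3 and 2 met 4 or more. The thoc-2 domain and its H4K8ac region shared both edges, while the mmab-1 domain lay within a longer H4K8ac region. H4K8ac had more broad regions of its own, 510 of at least 15 kb (11.7 Mb, widest 78799 bp). Of the domains, 345 (88.0%) overlapped such a broad H4K8ac region, and of the broad H4K8ac regions 338 (66.3%) overlapped a domain.

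5 domains met no listed H4K8ac region. They were named for unc-73 (I, 4001401 to 4027199; a guanine nucleotide exchange factor of axon guidance), 21ur-15491 (V, 14125201 to 14145199; a piRNA), let-805 (III, 2658801 to 2676999), miz-1 (IV, 10809801 to 10825799) and C06E8.7 (III, 6987001 to 7002199; a non-coding RNA). A sixth, sea-2 on II, was covered to 45.9%. Protein-coding gene spans filled all bases of the unc-73, 21ur-15491 and let-805 domains and 83.8% of the miz-1 domain, so these are sites within 1 or few long genes rather than gene-dense stretches.

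The absence of H4K8ac there cannot be read from the list alone. Region numbers follow position, and 2881 of the 9278 H4K8ac numbers are missing from the table used here. All 5 uncovered domains had missing numbers between the flanking H4K8ac regions, 4 numbers each at unc-73 and 21ur-15491, 3 at miz-1 and 1 each at let-805 and C06E8.7. Of the 265 fully covered domains, 128 (48.3%) also had missing numbers beside them. H4K5ac was itself near or below input at the genes of 4 of the 5: let-805 had 150, 167 and 162 CPM (counts scaled by library total and a trimmed mean of M-values, or TMM, factor) in the H4K5ac IP libraries, against 195, 200 and 206 CPM in the H4K5ac inputs. Only 21ur-15491 stood above input, with 264, 267 and 257 CPM in the IP libraries, against 172, 173 and 177 CPM in the inputs. CPM were scaled over listed genes, so near or below input is relative to the typical listed gene.

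**Figure D4:**
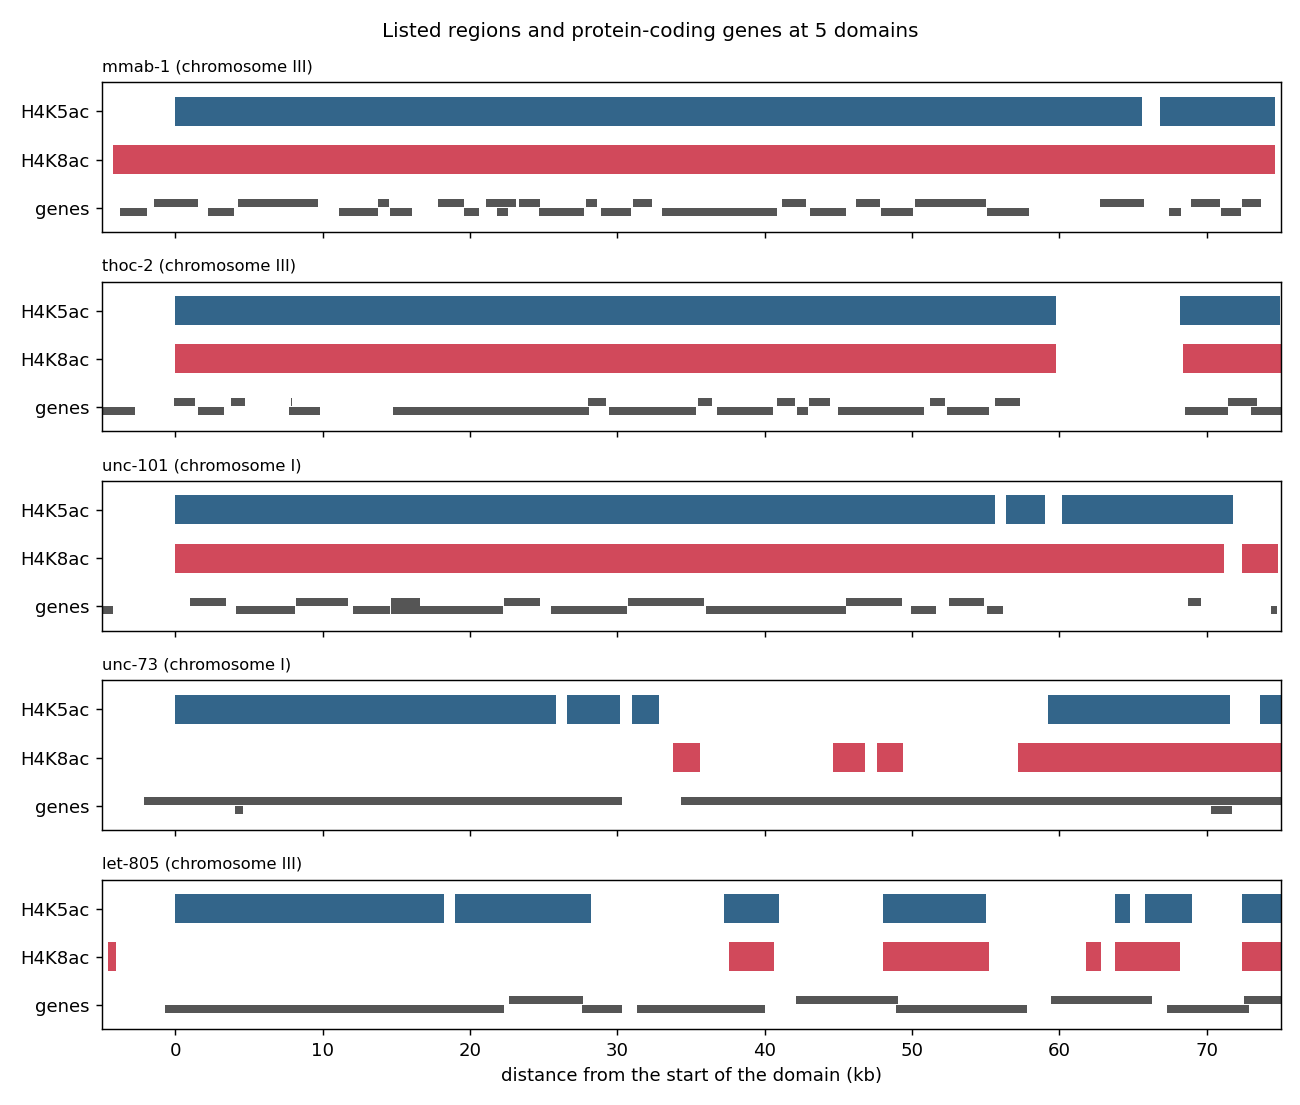
Listed H4K5ac regions, H4K8ac regions and protein-coding genes (bars; genes on alternating levels for legibility) from 5 kb before to 75 kb after the start of 5 domains, x axis in kb from the domain start. H4K8ac regions span the mmab-1, thoc-2 and unc-101 domains whole, while the unc-73 and let-805 domains meet none.

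The 13 domains of X were less completely covered than those of autosomes. Median cover was 94.3% on X and 100% on autosomes, and 2 of 13 X domains were fully covered, against 263 of 379 autosomal ones. 9 of the 13 met 2 or more H4K8ac regions, against 55 of 379. They held a median of 1 whole gene, against 4. With 13 domains on X and 1 list per mark the difference was not tested.

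The deposited counts add the strength of the signal, with 1 count per gene and library. Which bases were counted is not given, so a count is tied to a gene's name and not shown to measure its span. Nor does it describe the whole width of a domain. Mean H4K5ac input was 333 CPM for the piRNA gene 21ur-9905 and 323 CPM for set-16, scaled over the 3750 genes listed for both marks. Signal at a named gene means here the count listed under that name. 33 of the 392 named genes also had a region elsewhere and share their count with it. Libraries held 5460401 to 9156386 counts in all, and the median count of a domain's named gene ran from 1075 in H4K5ac input replicate 3 to 2192 in H4K8ac IP replicate 1. H4K5ac IP over input comes from the libraries that defined the domains, so its values are given as a description without a test.

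Among the domains, width did not go with H4K5ac signal at the named gene. Across all H4K5ac regions it did: the median H4K5ac log2 fold was -0.24 under 2 kb, -0.11 from 2 to 5 kb, 0.17 from 5 to 10 kb, 0.35 from 10 to 15 kb and 0.47 in the domains. mmab-1, in the widest domain, had 139, 159 and 144 CPM in H4K5ac IP, against 132, 151 and 141 CPM in H4K5ac input. The libraries overlapped, and the log2 fold change was 0.06 (SE 0.08). nduf-7 in the sixth-widest domain had 403, 324 and 323 CPM in IP, against 180, 198 and 193 CPM in input, a log2 fold of 0.88 (SE 0.10). K06C4.1 beside the histone cluster of V had 72.0, 68.6 and 65.2 CPM in IP and 66.8, 70.3 and 68.0 CPM in input, a log2 fold of 0.00. Among the 12 widest domains the H4K5ac log2 fold of the named gene ran from 0.06 to 0.88. The median over domains was 0.43 for widths of 15 to 17 kb, 0.38 for 17 to 20 kb, 0.60 for 20 to 25 kb and 0.48 from 25 kb up, with no steady order by width.

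Over the 392 named genes the median H4K5ac log2 fold was 0.47, beside -0.02 over all 5632 genes of the table, with a range of -0.36 to 1.92. All 3 IP libraries lay above all 3 inputs for 311 of the 392, beside 35.2% of all 5632 genes. They lay below all inputs for 10 of the 392, beside 33.1% of all 5632, and the groups overlapped for 71. The rule used this contrast, so nothing is read from those counts. Scaling by total counts, without TMM factors, gave an all-gene median of -0.15 and a domain-gene median of 0.33. Folds are therefore relative to the typical listed gene. By single IP library against the mean of the inputs, the median was 0.53 in IP replicate 1, 0.48 in replicate 2 and 0.41 in replicate 3.

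The strongest named genes had several times the H4K5ac signal of input. R107.5 on III (9043401 to 9065199) had 910, 683 and 595 CPM in H4K5ac IP, against 204, 182 and 193 CPM in H4K5ac input, a log2 fold of 1.92 (SE 0.17) that ranked 2 among all 5632 genes. hsp-1, the constitutive Hsp70 chaperone, on IV (17265801 to 17291999) had 278, 201 and 172 CPM in IP, against 73.4, 65.2 and 68.3 CPM in input, a log2 fold of 1.66. In both genes IP replicate 1 was the highest and every IP library was above every input. F16A11.9 (1.57), F22D6.2 (now mstr-1, 1.52), F31D4.2 (1.47) and a non-coding gene of the Y51H4A clone on IV (1.42) followed on the log2 scale. At the other end were R05H11.1 (-0.36), mans-2 (-0.33), let-805 (-0.33) and miz-1 (-0.30). On this relative scale these genes had less IP than input although they name a broad domain.

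H4K8ac IP over input was tested, since the rule did not use those libraries. The H4K8ac table lists 259 of the 392 named genes, and the other 133 have no value in it. A gene is listed only where it names an H4K8ac region, so the 259 entered through H4K8ac itself. The same holds for all 5671 genes beside them, and nothing is shown for the 133. Of the 259, 204 were higher in H4K8ac IP than in H4K8ac input by edgeR's quasi-likelihood test at an adjusted p under 0.05, beside 31.2% of all 5671 genes, and 7 were lower, beside 33.6% of all; 48 passed in neither direction. As a share, 78.8% of the domain genes were higher and 2.70% lower. The median log2 fold was 0.37, beside -0.04 over all genes, and domain genes ran from -0.31 to 1.50. All 3 IP libraries exceeded all 3 inputs for 208 of the 259 domain genes, beside 32.7% of all 5671 genes. They lay below all inputs for 8 of the 259, beside 36.5% of all 5671. The count of lower genes was small and unstable: it was 3 without IP replicate 3, 4 without input replicate 2 and 4 without input replicate 3. Over all genes, total-count scaling gave 1454 higher and 2497 lower calls, against 1768 and 1908 with TMM; among the domain genes it gave 189 and 12.

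H4K8ac at the named gene followed the width class of the H4K5ac region. Of genes named for H4K5ac regions under 2 kb, 9.78% were higher in H4K8ac IP, and the share was 19.0% for 2 to 5 kb, 52.0% for 5 to 10 kb, 70.0% for 10 to 15 kb and 78.8% for the domains. The median H4K8ac log2 folds of these classes were -0.14, -0.06, 0.15, 0.30 and 0.37. Only genes that the H4K8ac table also lists enter, which is 53.3% of the genes in the narrowest class and 66.1% in the domains. Counting instead the genes listed for H4K8ac whose transcription start lies in a domain gave 339 higher and 23 lower among 444. These 444, too, entered through H4K8ac itself.

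Values per library show how far the marks run together. R107.5 had 633, 487 and 617 CPM in H4K8ac IP, against 204, 203 and 208 CPM in H4K8ac input, and its log2 fold of 1.50 (SE 0.12, edgeR adjusted p 1.52e-06) was the highest of all 5671 genes. hsp-1 had 183, 141 and 181 CPM in IP, against 69.9, 70.9 and 71.8 CPM in input, a log2 fold of 1.25 (edgeR adjusted p 7.80e-07). In both, IP replicate 2 was the lowest IP library and the groups were far apart. F22D6.2 (1.17), F16A11.9 (1.13), F31D4.2 (1.11) and K08E3.5 (now rml-1, 1.02) were next on the log2 scale, and the first 5 of these 6 genes were also the first 5 for H4K5ac. In 195 of the 259 genes the H4K5ac log2 fold exceeded the H4K8ac log2 fold; antibodies differ in efficiency, so sizes are not comparable between marks.

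Of the 7 genes that were lower in H4K8ac IP, 5 named domains that H4K8ac regions covered whole, and the lowest cover among the 7 was 78.5%. vhp-1, a phosphatase of stress-activated kinases, had 193, 180 and 196 CPM in H4K8ac IP, against 236, 235 and 235 CPM in H4K8ac input, a log2 fold of -0.31 (SE 0.05, edgeR adjusted p 0.000273). R05H11.1 had 154, 163 and 165 CPM in IP, against 194, 198 and 200 CPM in input, a log2 fold of -0.30. In both genes the IP libraries lay below all inputs. tir-1, a TIR-domain adaptor of innate immunity, had 188, 201 and 188 CPM in IP, against 225, 225 and 232 CPM in input, a log2 fold of -0.24, and pqn-44 (now tent-5), a non-canonical poly(A) polymerase, one of -0.20. In tir-1 and pqn-44, too, every IP library lay below every input, but pqn-44 lost its call without IP replicate 3. The vhp-1, R05H11.1, tir-1 and pqn-44 domains were covered to 100% by H4K8ac regions. A region can thus be listed over a gene whose scaled count is below input. Counts were scaled over listed genes, and 45.5% of all 5671 genes had H4K8ac folds above 0. Such a fold is relative to the typical listed gene and does not show a lack of acetylation. H38K22.6 (-0.16, edgeR adjusted p 0.0261) passed too but lost its call in 5 of the other settings, whereas T06D8.15 (-0.15, edgeR adjusted p 0.0836) did not pass, but did in 3 other settings: total count scaling (0.0234), the replicate block (0.0446) and without IP replicate 2 (0.000558). The other two lower genes were F39C12.1 and hpo-26, both at -0.15, which lost their call in 5 and 6 of the other settings, hpo-26 also with the replicate block (edgeR adjusted p 0.0542). The vhp-1, R05H11.1 and tir-1 calls held in every setting tried.

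**Figure D5:**
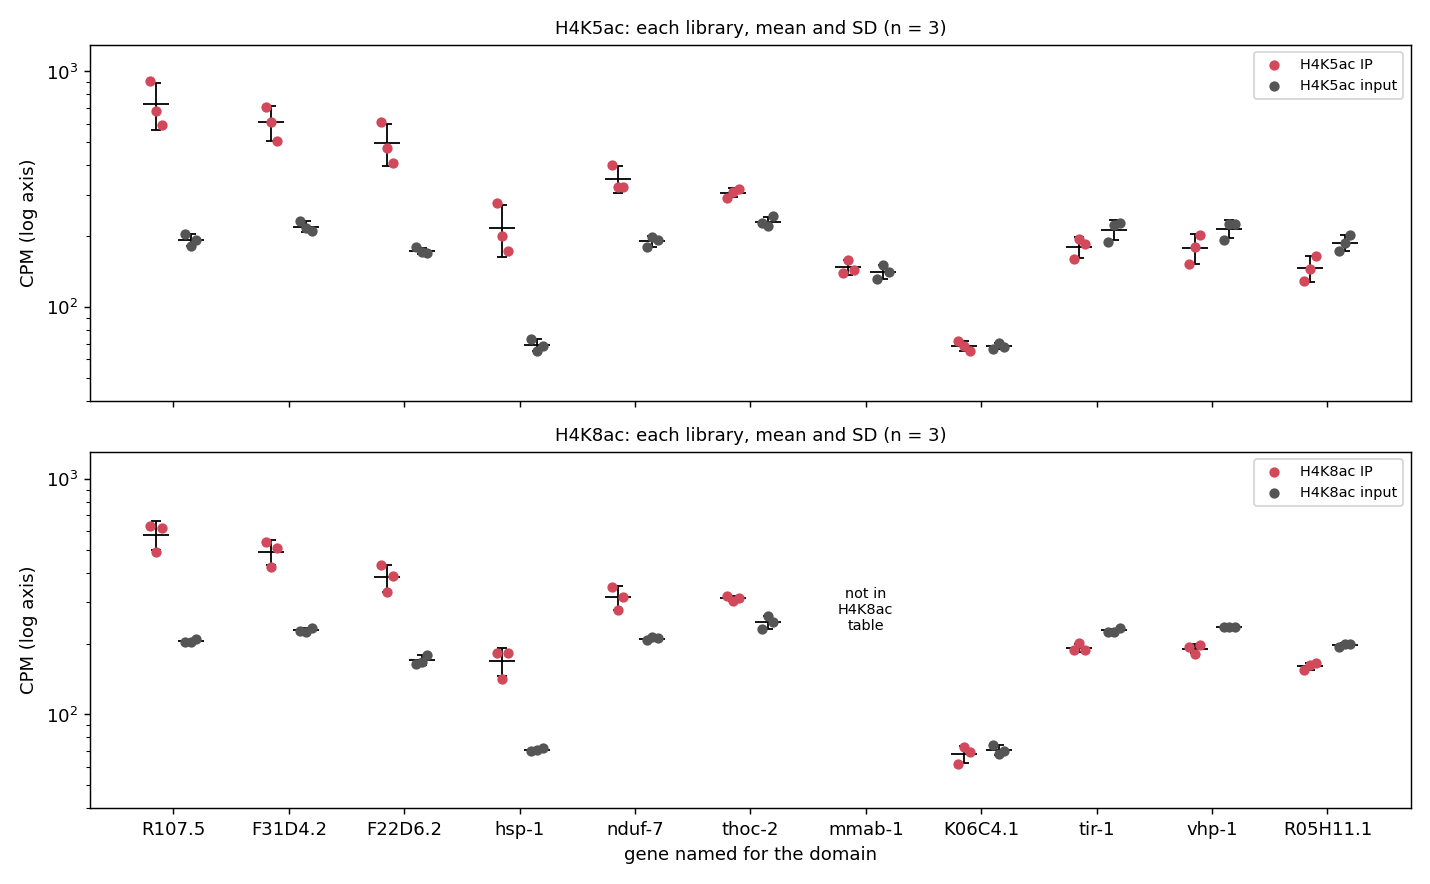
CPM on a log axis in each library (points, with mean and SD bars, n = 3) for 11 genes named for domains, IP left of input, H4K5ac above and H4K8ac below. R107.5, F31D4.2, F22D6.2 and hsp-1 have IP far above input in both marks, mmab-1 and K06C4.1 have IP near input, and tir-1, vhp-1 and R05H11.1 have IP below input for H4K8ac.

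Few genes of the lists above carry an H4K8ac value, because the table names 1 gene per region. Over the 9 lists of translation, proteasome, chaperone, splicing, transcription, chromatin and energy genes, 24 of 142 genes inside a domain were in the H4K8ac table; 23 were higher in IP and none lower, beside 31.2% higher and 33.6% lower among all genes of the table and 78.8% higher among the genes named for domains. Of the 24, rsp-8 passed in neither direction (log2 0.10, edgeR adjusted p 0.175). The 1 gene of the ribosomal protein list among them was rps-26, and rla-0 was not on that list's count. In rps-26, H4K8ac IP had 446, 349 and 420 CPM, against 171, 159 and 178 CPM in H4K8ac input, a log2 fold of 1.26 (edgeR adjusted p 1.06e-06). All 5 synthetases were higher, from 0.38 at qars-1 to 0.78 at yars-2 on the log2 scale, as were both proteasome genes, rpn-2 (0.80) and rpt-6 (0.77). All 5 chromatin genes were higher, including set-16 (1.02), an MLL-type methyltransferase, rba-1 (0.62), a histone-binding WD40 protein, and set-2 in the mmab-1 domain (0.35). Among families sparse in domains, sri-5 (0.41) and nhr-61 (0.55) were higher as well, and fbxa-216 (0.36) and fbxa-95 (0.17) were, whereas fbxa-108 (0.10) and bath-29 (0.06) passed in neither direction. Genes were listed only where they had an H4K8ac region, so these counts describe listed genes and not the lists.

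The input libraries of the 2 marks were compared at the domain genes. H4K5ac input against H4K8ac input called 0 of the 259 domain genes and 0% of the 3750 genes in both tables (edgeR's quasi-likelihood test, adjusted p under 0.05), with 36 domain genes and 650 genes in all at an unadjusted p under 0.05. Without H4K5ac input replicate 3, 5 domain genes were called beside 3.17% of all genes, and with the replicate number as a block 11 were called beside 5.33% of all genes. The median log2 difference over domain genes was -0.000192. With so few libraries, a lack of adjusted calls does not show that the inputs of the 2 marks were equal. Neither mean H4K5ac IP nor mean H4K5ac input followed the width of the domain (Spearman correlations 0.0436 and -0.0291 across the 392 domains, which share libraries).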

How the data were processed

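Each mark has 1 region list, repeated in the 6 library files that the authors deposited, with 1 estimated count per gene and library, not normalized, and the Distance_to_TSS and annotation of each region's centre. Per the submitters' processing notes the tools were MACS2 2.1.0, Bowtie 1.1.2, Trimmomatic 0.33 and bcl2fastq 2.17, and hg38 is named beside WBcel235; how regions were joined, whether they were called on pooled libraries and which bases were counted are not given in the sources used here. No 2 listed regions of a mark lay nearer than 801 bp. Coordinates are those of the files, and 99.98% of matched genes lay on the same chromosome in the RefSeq gene table of WBcel235, which gave gene spans and names. All 392 named genes matched it, 32 by an older name.

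Domains and their H4K8ac cover were computed by interval overlap in Python 3.11.15. Estimated counts were rounded and each mark's table was fitted alone with edgeR 4.0.16 in R 4.3.3 (quasi-likelihood test, TMM scaling, filterByExpr, which removed 0 genes, Benjamini-Hochberg adjustment, threshold 0.05); the method was tested on simulated data. Library totals were 5460401 to 9156386 counts, and CPM were computed on these totals multiplied by their TMM factors. No 2 libraries agreed within counting noise. For H4K5ac, IP and input libraries of the same replicate number deviated together (correlations 0.278, 0.110 and 0.226), each above 0.1, so the numbers were taken as pairing there. IP replicate 2 nevertheless correlated better with input replicate 3 (0.145). The H4K8ac numbers did not pair. The main fits of both marks had no replicate term, so the printed H4K5ac standard errors leave the pairing out. A replicate block was fitted as another setting. Genes were named by width, cover, fold rank and list order. The members and lists were chosen with earlier results of these data known. Sequences and promoter motifs were not analysed here.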

Additional observations from a re-analysis of the deposited data

How the results depend on the processing

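A minimum of 12 kb gave 684 domains and one of 20 kb gave 173; joining regions over gaps of at most 1000 bp gave 523, and the higher-ranked part of the H4K5ac list 363. Domains covered to 90% or more by H4K8ac numbered 334 with the higher-ranked part of the H4K8ac list and 363 with H4K8ac regions of 2 kb or more. For H4K8ac at domain genes, total count scaling gave 12 lower calls. Taking genes listed for H4K8ac by their start inside a domain gave 339 higher and 23 lower. Leaving out 1 replicate gave 189 to 221 higher and 3 to 10 lower calls, and over all genes 1530 to 2081 higher and 1301 to 2111 lower. DESeq2 gave 213 higher and 6 lower, and the replicate block 201 and 7. Over the 3750 genes in both tables, a fit of all 12 samples called 1152 higher and 899 lower, with fewer genes tested. The named domain genes shared 184 higher and 3 lower calls across 12 settings, and 0 changed direction. pqn-44 lost its call without H4K8ac IP replicate 3. The H4K5ac median was 0.33 with total count scaling and 0.47 with the replicate block. For H4K5ac input against H4K8ac input, the replicate block called 11 domain genes and 5.33% of all genes. Same-numbered inputs of the 2 marks correlated at 0.316, 0.176 and 0.0104. H4K5ac input replicate 3 correlated better with H4K8ac input replicate 2 (0.274), so whether these numbers pair is not settled. Leaving out 1 library called 0 to 5 domain genes and 0% to 3.17% of all genes. The share of all genes was 0.373% without H4K5ac input replicate 1, 0.0533% without H4K5ac input replicate 2 and 3.17% without H4K5ac input replicate 3. The cause was not tested. Among H4K8ac libraries, same-numbered IP and input correlated at -0.239, -0.101 and 0.0664, and not every library correlated best with its own number. Cover and gene content rest on 1 list per mark, from which 2868 H4K5ac and 2881 H4K8ac region numbers are missing, so a gap in cover is not shown to be a lack of signal. The promoter motif count was not run.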

Other observations

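Domains lay close to other H4K5ac regions: the median gap to the nearest was 1201 bp, and 30.4% of the 392 had one within 1000 bp. Of 386 pairs of neighbouring domains, 33 lay within 10 kb of each other and 22 within 5 kb, with a median gap of 103 kb. For 224 domains both neighbouring region numbers are listed, for 142 one is missing and for 26 both are.

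The B0035.21 domain on IV, 34199 bp wide, held 20 whole protein-coding genes, next to the 21 of the mmab-1 domain. They comprised 8 histone genes and, among others, dnj-2, pfd-4, gspd-1, leo-1 and sart-3. B0035.21 itself had 131, 138 and 134 CPM in H4K5ac IP, against 109, 111 and 110 CPM in H4K5ac input, and 150, 138 and 136 CPM in H4K8ac IP, against 101, 109 and 113 CPM in H4K8ac input. In the his-11 domain, his-11 had 32.9, 29.4 and 29.4 CPM in H4K5ac IP, against 19.6, 18.6 and 18.1 CPM in H4K5ac input. Levels there are low beside the other named genes, and histone genes are near-identical copies. Pseudogenes were rare in domains, with 67 of 1921 (3.49%) wholly inside.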
